A study of Mus musculus with 8 samples.

Results

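Genes for protein folding, translocation and quality control in the endoplasmic reticulum were compared between normal and neoplastic mouse ventral prostate. A list of 48 genes was drawn up by function, with earlier results of these data known. Each gene was represented by the probe set that named no other gene and had the highest mean over all arrays. Of the 48 genes, 47 were measured in this way, out of 12393 named genes on the array; Sec61g was named only by a probe set that also named other genes. Ero1l is listed under its current symbol, Ero1a, in the annotation.

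All samples were ventral prostate of FVB mice aged 20 weeks, with 1 array per sample. The 4 wild type samples were labelled normal, and the 4 transgenic samples were labelled as mouse prostatic intraepithelial neoplasia (mPIN), a lesion of the glandular epithelium that precedes invasion. According to the series design, the lesion was induced by overexpressing p110 beta, one of the catalytic isoforms of PI3-kinase, in its active form. The promoter that drives the transgene and the number of animals or founder lines are not given in the sources used here, so the p-values reflect only how far these samples spread, and part of that spread may be technical.

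Secreted proteins enter the endoplasmic reticulum through the Sec61 channel, lose their signal peptide, receive N-linked sugars, fold with the help of chaperones and disulfide enzymes, and are returned to the cytosol for destruction if they fail to fold. The load of unfolded protein is read by the sensors encoded by Ern1, Atf6 and Eif2ak3, and the factors XBP1 and ATF6 then switch on chaperone and degradation genes, which is known as the unfolded protein response (UPR). The secretory cells of the prostate make large amounts of protein for the seminal fluid and depend on this machinery.

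Values are log2 RMA values, and differences are transgenic minus wild type on that scale. Transgenic prostates had lower levels of 14 of the 47 genes at an adjusted p under 0.05 in limma, and no gene was higher; 33 did not pass. Over all genes tested, 4.98% were lower and 5.99% were higher at the same threshold. At an unadjusted p under 0.05, 24 of the 47 genes were lower and 2 were higher. The difference was below 0 for 40 of the 47 genes, and the median difference was -0.31, against -0.04 over all genes. The wild type and transgenic samples did not overlap for 17 genes that were lower, 12 of them past the threshold, and for 1 gene that was higher, Rpn2. Over all genes, 8.2% were lower without overlap and 8.09% were higher without overlap. In whole tissue, fewer cells of a type and less RNA per cell cannot be told apart.

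The genes that fell came from 5 of the 6 roles. Of 8 degradation factors 5 fell, with a median difference of -0.48, and of 11 chaperones and co-chaperones 4 fell, with a median of -0.54. The targeting and translocon genes gave 3 of 11 and a median of -0.10, the disulfide enzymes 1 of 6 and -0.25, and the signal peptidase and oligosaccharyltransferase subunits 1 of 7 and -0.36. None of the 4 stress sensors and transcription factors passed in limma, and none had an unadjusted p under 0.05. Without wild type 3 or transgenic 2 the count of degradation factors was 3, and the count of signal peptidase and oligosaccharyltransferase subunits was 3 without wild type 4 and 0 without transgenic 4. Under quantile normalization 7 chaperones and 4 subunits of the last group fell, under cyclic loess normalization 6 and 4, and with array weights 7 and 3. Differences between the role groups were not tested.

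**Figure D1:**
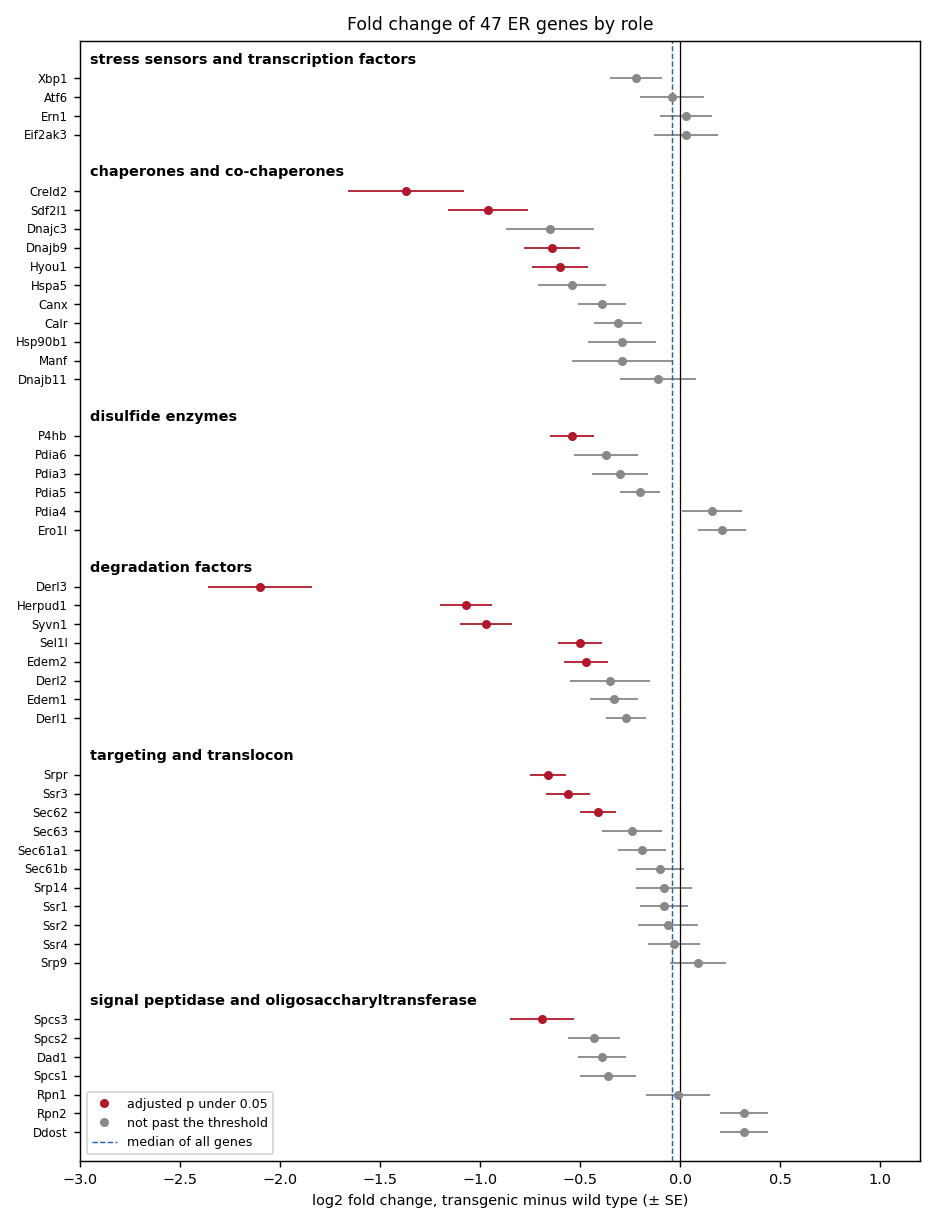
Log2 fold change (transgenic minus wild type, with its SE) of the 47 measured genes, grouped by role; red points passed an adjusted p of 0.05 and grey points did not, and the dashed line is the median of all genes (-0.04). All 11 chaperones and co-chaperones and all 8 degradation factors lie to the left of 0, from -0.11 to -1.37 and from -0.27 to -2.10, while Rpn2 and Ddost lie at 0.32.

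Because XBP1 and ATF6 act through short DNA elements, the promoters of these genes were searched for the ER stress response elements that were described on chaperone promoters. RefSeq promoter windows (GRCm38.p6, 250 bases before to 50 bases after the start) were found for 41 of the 48 genes, all but Atf6, Derl1, Hyou1, Manf, Sec61a1, Spcs3 and Ssr2. The letters of the element ERSE, which are CCAAT, 9 bases of any kind and CCACG, on either strand, were in the windows of 9 of the 41 genes, against 37 of 27025 genes with a window, which is 0.137%. The letters of ERSE-II, which are ATTGG, 1 base of any kind and CCACG, were in 2 of the 41 and in 12 of 27025 genes (0.0444%). The element UPRE, searched as TGACGTGG, was in no window of the 41 genes and in 0.714% of all genes with a window. Over all windows, 2 ERSE copies overlapped an ERSE-II or UPRE match and 1 ERSE-II copy overlapped a UPRE match. ERSE was defined on promoters of genes in this list, so its frequency here is background and not a result of these arrays. All 12 copies are shown. They lie in the windows of 11 genes, of which 4 fell, Derl3, Creld2, Herpud1 and Syvn1, and 7 did not pass. Capitals mark the fixed letters, lower case the spacer, and each is read 5′ to 3′ on the strand where CCAAT (or ATTGG) comes first.
Derl3: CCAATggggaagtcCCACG
Creld2: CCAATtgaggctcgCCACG
Syvn1: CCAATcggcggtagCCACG
Dnajc3: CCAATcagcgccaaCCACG
Hspa5: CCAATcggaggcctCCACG
Canx: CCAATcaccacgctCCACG
Pdia6: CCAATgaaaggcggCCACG
Calr: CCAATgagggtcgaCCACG
Hsp90b1, distal copy: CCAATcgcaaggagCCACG
Hsp90b1, proximal copy: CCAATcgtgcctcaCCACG
Herpud1: ATTGGgCCACG
Dnajb11: ATTGGcCCACG

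The stretches of 100 bases around the element are given for the 4 genes named above and for Hspa5, the classical target of the response. Each is written 5′ to 3′ on the strand of its gene, with the element in capitals. The Derl3 stretch is chr10:75893201-75893300, plus strand, and the element lies at -156 to -138 from the start. The Creld2 stretch is chr15:88819479-88819578, plus strand, with the element at -126 to -108. In both of these the element runs against the gene, so it appears as its reverse complement.
Derl3: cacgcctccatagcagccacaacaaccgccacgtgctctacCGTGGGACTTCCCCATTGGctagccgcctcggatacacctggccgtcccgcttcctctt
Creld2: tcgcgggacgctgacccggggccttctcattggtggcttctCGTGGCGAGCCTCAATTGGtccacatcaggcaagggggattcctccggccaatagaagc
The Syvn1 stretch is chr19:6046476-6046575, plus strand, with the element at -44 to -26, and the Herpud1 stretch is chr8:94386329-94386428, plus strand, with ERSE-II at -52 to -42. The Hspa5 stretch is chr2:34771984-34772083, plus strand, with the element at -65 to -47.
Syvn1: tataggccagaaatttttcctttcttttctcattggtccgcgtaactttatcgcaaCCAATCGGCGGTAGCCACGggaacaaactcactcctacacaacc
Herpud1: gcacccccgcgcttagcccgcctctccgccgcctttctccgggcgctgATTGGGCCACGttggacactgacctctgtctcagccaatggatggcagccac
Hspa5: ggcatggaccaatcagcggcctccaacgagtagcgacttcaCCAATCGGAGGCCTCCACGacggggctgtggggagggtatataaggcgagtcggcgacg

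The 11 genes with an ERSE or ERSE-II match all had a difference below 0, with a median of -0.54, and 4 of them fell. The 29 measured genes with a window and neither match had a median of -0.24, and 8 of them fell. Among all 9887 measured genes with a window, 5.17% fell. A match describes the letters only, and no binding was measured.

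Degradation factors held the largest fall. DERL3 is a derlin, a membrane protein that helps to move misfolded proteins out of the endoplasmic reticulum and is found mainly in professional secretory cells. Derl3 was at 9.80, 9.81, 9.92 and 9.32 in wild type samples 1 to 4 and at 8.01, 7.73, 8.01 and 6.70 in transgenic samples 1 to 4. Every transgenic sample was below every wild type sample, and transgenic 4 was the lowest. The group means were 9.71 ± 0.27 and 7.61 ± 0.63 (SD, n = 4 each). Wild type thus exceeded transgenic 4.29-fold, with a difference of -2.10 ± 0.26 (SE; limma adjusted p = 0.00035). For the other derlins, Derl1 was at -0.27 (adjusted p = 0.114) without overlap between groups, while 1 of its 3 other probe sets fell, by 0.52 (0.0107), and Derl2 at -0.35 (adjusted p = 0.367) with overlap.

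Herpud1 and Syvn1 encode partners at the core of the degradation machinery, a membrane protein with a ubiquitin-like domain and the ubiquitin ligase HRD1. Herpud1 was at 11.35, 11.10, 11.22 and 10.90 in wild type samples and at 10.05, 9.88, 10.33 and 10.02 in transgenic samples. The groups were separated by more than their own ranges. The difference was -1.07 ± 0.13 (SE; adjusted p = 0.000262), and a second Herpud1 probe set also fell, by 0.85. Syvn1 was at 9.32, 9.11, 9.53 and 9.37 in wild type samples and at 8.56, 8.09, 8.45 and 8.34 in transgenic samples. Again no transgenic sample reached the wild type range, with a difference of -0.97 ± 0.13 (SE; adjusted p = 0.000495).

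Sel1l, which encodes the adaptor that binds HRD1, and Edem2, which encodes a mannosidase-like protein that marks glycoproteins for disposal, showed smaller falls. Sel1l was at 8.63, 8.60, 8.98 and 8.77 in wild type and at 8.25, 8.20, 8.42 and 8.12 in transgenic samples, without overlap (difference -0.50 ± 0.11 SE; adjusted p = 0.0179). Edem2 was at 9.23, 9.06, 9.32 and 9.26 in wild type and at 8.52, 8.72, 8.88 and 8.86 in transgenic samples, also without overlap (difference -0.47 ± 0.11 SE; adjusted p = 0.0191). These 2 calls depended on single samples. Sel1l missed the threshold without wild type 3 (adjusted p = 0.0588), transgenic 2 (0.0615) or transgenic 4 (0.064), and Edem2 without wild type 3 (0.0669) or transgenic 2 (0.0632). Edem1, a relative of Edem2, was at -0.33 (adjusted p = 0.122) without overlap.

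**Figure D2:**
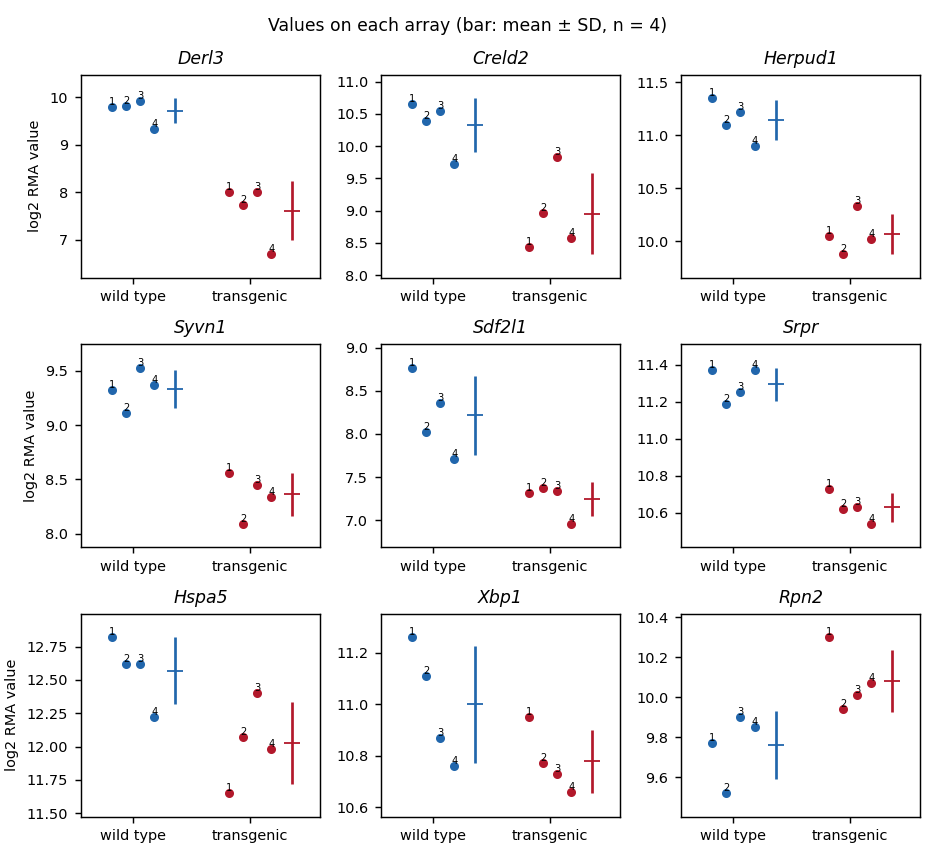
Log2 RMA values of 9 genes on each of the 8 arrays, with the replicate number above each point and the mean ± SD (n = 4) beside it; the vertical axes differ between panels and do not start at 0. Derl3, Herpud1, Syvn1, Sdf2l1 and Srpr do not overlap between groups, Creld2, Hspa5 and Xbp1 do, and Rpn2 is higher in every transgenic sample.

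Among chaperones, the largest differences were in Creld2 and Sdf2l1, which encode small soluble proteins of the endoplasmic reticulum that are induced when unfolded protein builds up; SDF2L1 works in a complex with the chaperone BiP. Creld2 was at 10.66, 10.39, 10.54 and 9.72 in wild type and at 8.43, 8.97, 9.83 and 8.58 in transgenic samples. The groups overlapped by a single pair, since transgenic 3 lay above wild type 4. The difference was -1.37 ± 0.29 (SE; adjusted p = 0.0105), or 2.59-fold. Sdf2l1 was at 8.77, 8.02, 8.36 and 7.71 in wild type and at 7.32, 7.38, 7.34 and 6.96 in transgenic samples, without overlap. Its difference was -0.96 ± 0.20 (SE; adjusted p = 0.00982).

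Dnajb9, which encodes the BiP co-chaperone ERdj4, was at 10.60, 10.30, 10.57 and 10.11 in wild type and at 9.63, 9.71, 10.02 and 9.66 in transgenic samples. The groups did not overlap, and the difference was -0.64 ± 0.14 (SE; adjusted p = 0.011). Hyou1, which encodes a large Hsp70 relative that exchanges the nucleotide of BiP, was at 10.41, 9.95, 10.31 and 10.38 in wild type and at 10.02, 9.56, 9.56 and 9.51 in transgenic samples. Here transgenic 1 lay above wild type 2, and the difference was -0.60 ± 0.14 (SE; adjusted p = 0.0199). Hyou1 missed the threshold without wild type 3 (adjusted p = 0.062) or transgenic 2, 3 or 4 (0.069, 0.0653 and 0.0697).

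BiP itself, encoded by Hspa5, is the main Hsp70 chaperone of the compartment. Hspa5 was at 12.82, 12.62, 12.62 and 12.22 in wild type and at 11.65, 12.07, 12.40 and 11.98 in transgenic samples. Of the transgenic samples only transgenic 3 was above the lowest wild type sample, wild type 4. The difference of -0.54 ± 0.17 (SE) did not pass (adjusted p = 0.0655), but it passed in 5 of 16 alternatives. These were without wild type 4 (0.0273) or transgenic 3 (0.0334), and with all arrays under quantile normalization (0.0337), cyclic loess normalization (0.0199) or array weights (0.0339). Dnajc3, encoding the co-chaperone p58IPK that restrains PERK, had a difference of -0.65 ± 0.22 (SE; adjusted p = 0.099) on the probe set used. Dnajc3 passed in 4 of 17 alternatives, among them quantile normalization (0.0309), cyclic loess normalization (0.0402) and without wild type 4 (0.0417). Its 4 other probe sets all fell, by 0.63 to 1.04.

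The lectin chaperones calnexin and calreticulin, which hold glycoproteins during folding, and the Hsp90 of the compartment did not pass. Canx was at -0.39 (adjusted p = 0.0792), Calr at -0.31 (0.146) and Hsp90b1 at -0.29 (0.397). Manf, encoding a secreted factor of the stress response, was at -0.29 (0.591) and the co-chaperone gene Dnajb11 at -0.11 (0.814). All 5 genes overlapped between groups, and the second highest of the 8 Manf values, 10.14, was that of transgenic 3.

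Of the disulfide enzymes 1 fell, P4hb, which encodes protein disulfide isomerase itself. P4hb was at 12.86, 12.73, 12.92 and 12.78 in wild type and at 12.51, 12.19, 12.16 and 12.25 in transgenic samples. The groups did not overlap, and the difference was -0.54 ± 0.11 (SE; adjusted p = 0.00705). Its relatives Pdia6, Pdia3 and Pdia5 were at -0.37, -0.30 and -0.20 (adjusted p = 0.216, 0.272 and 0.297) and Pdia4 at 0.16 (adjusted p = 0.629). Ero1l, which encodes the oxidase that recharges these enzymes, had means of 8.12 ± 0.21 in the wild type and 8.33 ± 0.09 in the transgenic group (SD, n = 4 each; adjusted p = 0.358). A second Ero1l probe set rose by 0.87 (adjusted p = 0.0378). Averaged over all its probe sets, Ero1l rose by 0.44 (adjusted p = 0.0254), the single call in that direction under any alternative.

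Ribosomes that make secreted proteins are brought to the membrane by the signal recognition particle and its receptor. Srpr, which encodes the alpha subunit of that receptor, was at 11.37, 11.19, 11.25 and 11.37 in wild type and at 10.73, 10.62, 10.63 and 10.54 in transgenic samples. The ranges within groups were small beside the gap between them, and the difference was -0.66 ± 0.09 (SE; adjusted p = 0.000804). A second Srpr probe set had means of 3.94 in wild type and 3.92 in the transgenic group, both far below the array medians, and did not pass (adjusted p = 0.947). The particle genes Srp9 and Srp14 were at 0.09 and -0.08 (adjusted p = 0.781 and 0.807).

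At the channel, Ssr3 and Sec62 fell. Ssr3, a subunit of the translocon-associated complex TRAP, was at 11.04, 10.82, 10.88 and 10.68 in wild type and at 10.41, 10.17, 10.31 and 10.29 in transgenic samples, without overlap (difference -0.56 ± 0.11 SE; adjusted p = 0.00587). The other TRAP genes Ssr1, Ssr2 and Ssr4 lay between -0.08 and -0.03, though a second Ssr4 probe set fell by 0.54 (adjusted p = 0.00923). Whether Ssr3 differed from the other subunits was not tested.

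Sec62, which encodes a channel partner for proteins that enter after translation, was at 10.65, 10.55, 10.66 and 10.62 in wild type and at 10.38, 10.16, 10.16 and 10.16 in transgenic samples (difference -0.41 ± 0.09 SE; adjusted p = 0.0177). It missed the threshold without wild type 3 (adjusted p = 0.0592) or transgenic 2, 3 or 4 (0.0659, 0.0594 and 0.0599), and its 3 other probe sets, from -0.21 to 0.21, did not pass. The channel genes Sec61a1 and Sec61b were at -0.19 and -0.10 and Sec63, encoding a J-domain partner of the channel, at -0.24, with adjusted p from 0.441 to 0.71. A second Sec61a1 probe set fell by 0.56 (adjusted p = 0.00926), and the 4 others lay between -0.22 and -0.04.

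Signal peptidase and the oligosaccharyltransferase act on the chain as it emerges, the first cutting the signal peptide and the second adding sugars. Spcs3, a signal peptidase subunit, was at 10.76, 10.18, 10.11 and 10.13 in wild type and at 9.79, 9.60, 9.68 and 9.34 in transgenic samples, without overlap (difference -0.69 ± 0.16 SE; adjusted p = 0.0162). It missed the threshold without transgenic 4 (adjusted p = 0.0574). Spcs2 and Spcs1, at -0.43 (adjusted p = 0.0565) and -0.36 (0.156), did not overlap either. Spcs2 passed in 7 of 17 alternatives, among them quantile normalization (0.00881), cyclic loess normalization (0.0129) and without wild type 4 (0.0387). Its second probe set fell by 0.51 (0.042).

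The oligosaccharyltransferase genes pointed in different directions. Dad1 was at -0.39 (adjusted p = 0.0655), without overlap, and passed in 4 of 16 alternatives. These were without wild type 4 (0.0305), and under quantile normalization (0.00597), cyclic loess normalization (0.00775) or array weights (0.0386). Rpn1 was at -0.01 (0.989). Rpn2 was at 9.77, 9.52, 9.90 and 9.85 in wild type and at 10.30, 9.94, 10.01 and 10.07 in transgenic samples. Every transgenic sample was thus above every wild type sample, but the difference of 0.32 ± 0.12 (SE) did not pass (adjusted p = 0.126). Ddost was also at 0.32 (0.156), with overlap.

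The sensors and factors that control these genes showed no called change at the level of their own RNA. Xbp1 was at 11.26, 11.11, 10.87 and 10.76 in wild type and at 10.95, 10.77, 10.73 and 10.66 in transgenic samples, which overlapped widely (difference -0.22 ± 0.13 SE; adjusted p = 0.365). Its 3 other probe sets lay between -0.31 and -0.25 and did not pass. Atf6 was at -0.04 ± 0.16, Ern1 at 0.03 ± 0.13 and Eif2ak3, which encodes PERK, at 0.03 ± 0.16 (SE; adjusted p from 0.936 to 0.946), and the sign of each changed in some alternatives. Both Ern1 means, 5.31 and 5.34, were below all array medians, a range in which background weighs on the values. The arrays do not measure splicing of Xbp1 RNA, cleavage of ATF6 or phosphorylation.

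**Figure D3:**
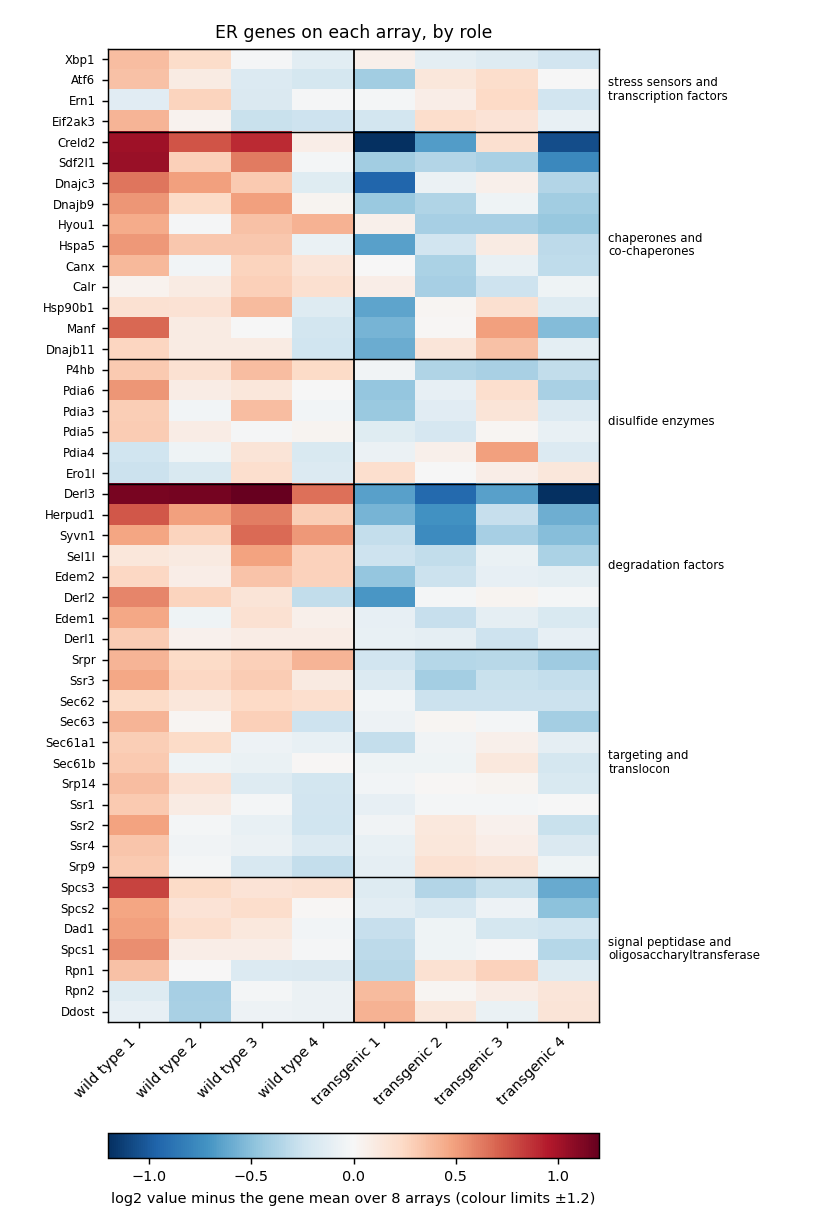
Log2 value of each of the 47 genes on each array minus the mean of that gene over the 8 arrays, grouped by role, with colours limited at ±1.2. Wild type 1 has the highest wild type value for 32 of 47 genes, and transgenic 3 the highest transgenic value for 23.

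Samples of a group differed among themselves in a way that many of these genes shared. Wild type 1 had the highest wild type value for 32 of the 47 genes, and wild type 4 the lowest for 27. Transgenic 3 had the highest transgenic value for 23 genes, while transgenic 1 had the lowest for 18 and the highest for 16. For the 11 chaperones and co-chaperones, the mean of the gene-centred values was 0.52, 0.23, 0.37 and 0.00 in wild type samples 1 to 4 and -0.48, -0.24, 0.02 and -0.41 in transgenic samples 1 to 4, so that transgenic 3 and wild type 4 met near 0. For the 8 degradation factors it ran from 0.24 to 0.51 in wild type and from -0.48 to -0.23 in transgenic samples, without overlap. For the 11 targeting and translocon genes it ran from -0.07 to 0.36 and from -0.22 to -0.04.

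Lists of other genes of the same pathways, which hold none of the genes above, gave falls together with rises. Of 41 measured genes for folding and degradation outside the list, 9 fell and 5 rose, and the median was -0.19. Fkbp11, encoding a prolyl isomerase of secretory cells, fell by 1.22 (adjusted p = 0.00295), but its other 2 probe sets did not pass. Ero1b, the oxidase related to Ero1l, was at 8.28, 7.81, 8.31 and 7.83 in wild type and at 7.72, 7.10, 7.09 and 6.79 in transgenic samples, a fall of all 4 below the wild type range (difference -0.89 ± 0.19 SE; adjusted p = 0.0129). Qsox1, encoding a sulfhydryl oxidase of the Golgi and of secretions, was between 6.76 and 7.22 in wild type and, 6.96-fold higher, between 9.65 and 10.05 in transgenic samples (adjusted p = 2.62e-07). Of its 3 other probe sets 1 rose. Sil1, encoding a nucleotide exchange factor of BiP, rose by 0.92 (adjusted p = 0.00983).

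Of 21 other genes for targeting and processing, 6 fell and 1 rose, and the median was -0.17. Magt1, an oligosaccharyltransferase subunit, fell by 0.87 and Srp68, a subunit of the signal recognition particle, by 0.79 (adjusted p = 0.0019 and 0.000184). Srprb, the beta subunit of the receptor whose alpha subunit fell, was lower by 0.58 (adjusted p = 0.0138), a call lost without wild type 3 (0.0509) or transgenic 4 (0.0513). Gfpt1, which encodes the first enzyme of UDP-GlcNAc synthesis, rose by 0.76 (adjusted p = 0.0102).

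Of 26 other genes of UPR signalling, 3 fell and 4 rose, and the median was -0.09. Bhlha15, which encodes MIST1, a transcription factor of professional secretory cells, was at 11.19, 10.67, 10.82 and 11.04 in wild type and at 9.84, 9.42, 9.36 and 9.43 in transgenic samples. All transgenic values were below the wild type range, with a difference of -1.42 ± 0.14 (SE; adjusted p = 7.28e-05), and its second probe set also fell, by 0.41. Creb3l4, encoding a membrane-bound factor of the ATF6-like family that is known from prostate, rose in every transgenic sample, from 4.97 ± 0.08 to 7.34 ± 0.21 (SD, n = 4 each; adjusted p = 4.74e-07), and its relative Creb3l1 rose by 0.71 (0.00526). The wild type mean of Creb3l4 was below the median of every array, so the size of its rise is approximate. Of the PERK branch, Atf4 was at 0.04 and Ddit3, encoding CHOP, at -0.13, and neither passed (adjusted p = 0.92 and 0.781). Nfe2l2, also of this list, was lower, at -0.43 (adjusted p = 0.0159). Atf4, Ddit3 and Nfe2l2 were chosen for naming after their values were seen, and the branch as a whole was not tested.

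Of 31 genes for exit from the endoplasmic reticulum and retrieval to it, 6 fell and 0 rose in limma, and the median was -0.29; at an unadjusted p under 0.05, 16 were lower and 0 higher. Sar1a, encoding the GTPase that starts COPII coats, fell by 0.58 (adjusted p = 0.00419), Lman1, encoding a cargo receptor, by 0.57 (0.0148) and Kdelr3, encoding a receptor that returns chaperones, by 0.50 (0.0116). Bet1 fell by 0.60 (0.0307). Lman1 missed the threshold without transgenic 4 (0.0535) and Bet1 without wild type 3 (0.0819) or transgenic 1, 2 or 4 (0.0648, 0.0719 and 0.0978). Of Sar1a, Lman1 and Bet1 no other probe set passed.

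**Figure D4:**
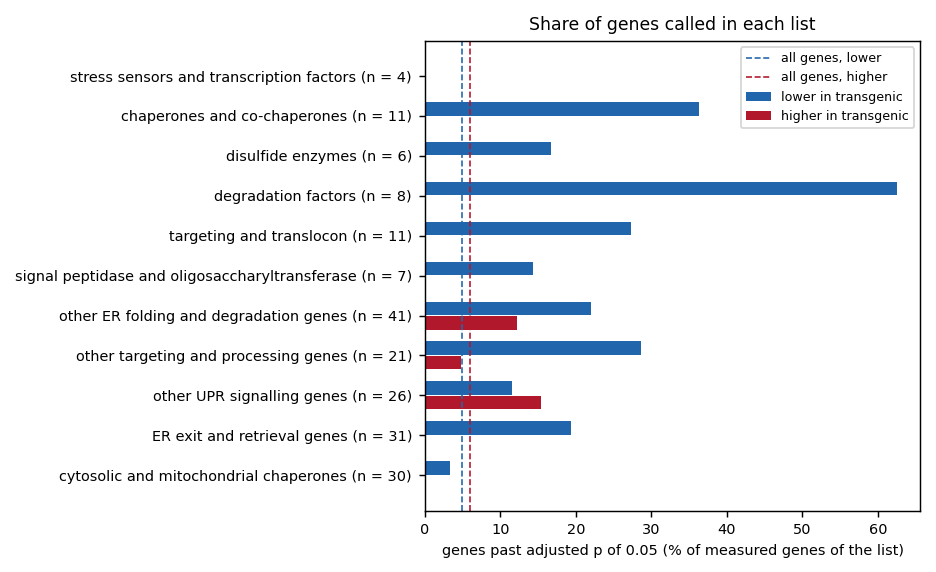
Share of the measured genes of each list that were lower (blue) or higher (red) in transgenic samples at an adjusted p of 0.05, with dashed lines at the shares over all genes (4.98% lower, 5.99% higher). Degradation factors reach 62.5% lower, and cytosolic and mitochondrial chaperones 3.33%.

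Markers of the labelled tissue were detected: for 0 of the 10 measured luminal epithelial markers were both group means below the array medians. Of these 10 markers 5 rose and 0 fell (limma; unadjusted p under 0.05 for 6 and 0), with Elf3, an epithelial transcription factor gene, up by 1.26, Cd24a by 1.18, Cdh1 by 0.82 and Epcam by 0.76. Of 10 basal markers 5 fell, of 12 smooth muscle markers 3 fell and of 12 fibroblast markers 2 fell, with 0 of these higher, also at an unadjusted p under 0.05. The mean gene-centred level of luminal markers ran from -0.39 to -0.14 in wild type and from 0.25 to 0.29 in transgenic samples, and that of fibroblast markers from -0.30 to 0.99 and from -0.39 to -0.18. For the Gapdh and beta actin controls, the excess of 3 prime over 5 prime signal on the log2 scale, which grows as RNA degrades, was 1.47 ± 0.09 in the wild type and 1.12 ± 0.19 in the transgenic group (SD, n = 4 each; exact permutation p = 0.0571, two-sided). The part of these values in the falls above was not tested. With the stromal score of each sample (mean level of the smooth muscle and fibroblast lists) as a covariate, 9 of the 47 genes fell; Creld2 and Dnajb9 missed the threshold at similar sizes (-1.29, adjusted p = 0.159, and -0.71, 0.0926), as did Sel1l, Edem2 and Sec62 (-0.52, -0.51 and -0.50; adjusted p = 0.153, 0.142 and 0.0824). Among the other genes named above, calls were lost with the same covariate for Sil1 (0.88, adjusted p = 0.141), Gfpt1 (0.75, 0.133), Creb3l1 (0.62, 0.131), Bet1 (-0.81, 0.0683) and Cdh1 (0.93, 0.0604). The lowest wild type score was -0.17 and the highest transgenic score -0.19, so this covariate cannot separate the stroma from the group. It also widened the errors: the SE of Creld2 was 0.29 without it and 0.43 with it.

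Of 11 measured genes for prostatic secretory products, 3 fell, 1 rose and 7 did not pass. Msmb, encoding a major secretory protein, was at 13.35, 13.52, 13.08 and 13.56 in wild type and at 12.43, 10.61, 12.22 and 11.40 in transgenic samples (adjusted p = 0.00592), and Pbsn, encoding probasin, at 12.85 ± 0.35 and 11.57 ± 0.45 (SD, n = 4 each; 0.00361). The groups did not overlap for either gene, and transgenic 2 was the lowest sample for both. With the stromal score as a covariate both calls were lost at similar sizes (-1.73, adjusted p = 0.0874, for Msmb and -1.25, 0.075, for Pbsn). The mean gene-centred level of the secretory list was lowest among wild type in wild type 1 (0.02) and highest in wild type 4 (0.34), while that of the 47 genes was 0.39 and 0.01 in these samples. The level of the secretory list includes the 6 genes below the array medians, a range in which background weighs on the values. The part of the secretory genes in the falls above was not tested.

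B and plasma cells also carry a large secretory apparatus. Of 13 measured B and plasma cell markers 0 fell and 1 rose in limma, Sdc1, which epithelium also expresses; at an unadjusted p under 0.05, 0 were lower and 2 higher. For 9 of the 13 both group means were below the median of every array, among them Cd79a, Ms4a1 and Tnfrsf17. Jchain, a plasma cell gene, was at 3.85, 5.62, 5.62 and 7.76 in wild type and at 5.62, 4.48, 5.57 and 7.11 in transgenic samples, with sample 4 the highest in both groups. The part of B and plasma cells in the falls above was not tested.

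**Figure D5:**
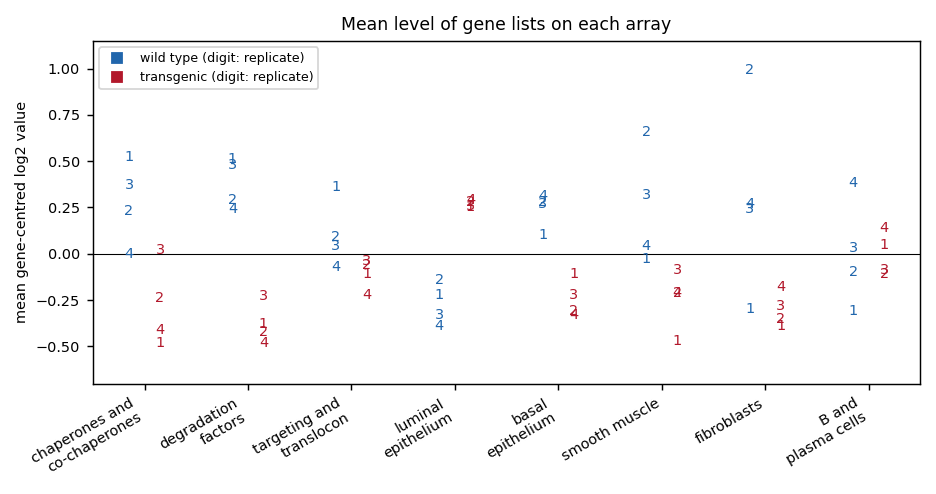
Mean gene-centred log2 value of 8 gene lists on each array, with blue digits for wild type and red digits for transgenic replicates. Degradation factors, luminal and basal epithelium and smooth muscle do not overlap between groups, while chaperones, translocon genes, fibroblasts and B and plasma cells do.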

How the data were processed

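Total RNA was purified with Trizol and an RNeasy column and labelled with biotin by the Affymetrix protocol, per the labels' protocols. The deposited values are log2 values made with RMA (no version given), per the submitters' processing notes. Since RMA includes quantile normalization, a difference shared by all transcripts would be removed. Array medians ran from 5.40 to 5.51 and SDs from 1.93 to 2.11. The number of arrays limits the precision.

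Of 22690 probe sets, 64 controls were left out. The platform annotation gave 20380 of the others 1 symbol, 691 several and 1555 none, with symbols updated through RefSeq (GRCm38.p6, names and promoter sequences only). The model was fitted over 22626 probe sets in limma 3.58.1 under R 4.3.3 (lmFit, eBayes; two-sided; Benjamini-Hochberg over all). The genes and lists were chosen with earlier results of these data known. All 48 genes are described; of each other list up to 4 genes past the threshold by size of change were eligible, or the smallest p where none passed, and others are marked. Simulated data of the same size gave recovery of 36.8%, 81.8% and 97.0% for changes of 0.5, 1 and 2 (log2), with 3 false calls among 146. Each simulated probe set was drawn independently, and only 68, 66 and 66 of 22626 were changed at these sizes. The rates may therefore differ in the real data, where many genes shift together. Spcs2, named in 2 lists, was counted only among the 48 genes. Protein sequences were not analysed here.

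The stromal score, the mean level of the smooth muscle and fibroblast lists, was 0.27 ± 0.42 in the wild type and -0.27 ± 0.11 in the transgenic group (SD, n = 4 each; exact permutation p = 0.0286, the smallest possible). After Benjamini-Hochberg adjustment over this score and the control difference both p-values were 0.0571. The alternatives were 2 further normalizations (quantile, cyclic loess), a filter on the dimmest 40% of probe sets, limma with trend and robust options, weighted arrays, gene values averaged over probe sets, no shared probe sets, a block for the replicate number, the stromal score as a covariate, stricter thresholds and each array left out in turn.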

Additional observations from a re-analysis of the deposited data

Results flagged for a closer look

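For each of the 47 genes the 4 samples of a group were searched for a value far from the other 3, which gave 8 flags in 94 groups of samples, where chance flags about 1 in 20. In transgenic 1, Hyou1 was at 10.02 against 9.51 to 9.56 in the other transgenic samples, Sec62 at 10.38 against 10.16 in each of the others, and Derl2 at 7.21 against 7.88 to 7.94. Sdf2l1 was at 6.96 in transgenic 4 against 7.32 to 7.38, and Derl1 at 10.20 in transgenic 3 against 10.34 to 10.36. In wild type 1, Spcs1 was at 11.10 against 10.53 to 10.62 and Spcs3 at 10.76 against 10.11 to 10.18. Ddost was at 9.15 in wild type 2 against 9.44 to 9.48.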

How the results depend on the processing

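Of the 14 genes that fell, 6 stayed past an adjusted p of 0.05 in every alternative fit: Derl3, Herpud1, Syvn1, Sdf2l1, P4hb and Ssr3. P4hb and Ssr3, at 1.46-fold and 1.47-fold, missed the stricter threshold of over 1.5-fold. All probe sets of Derl3, P4hb and Ssr3 are marked as shared between transcripts, so the alternative without shared probe sets gave no value for them. The number of listed genes that fell was 22 under quantile normalization, 21 under cyclic loess normalization and 19 with array weights. It was 9 with the stromal score, 7 at an adjusted p under 0.01 and 9 with a change of over 1.5-fold required. With the mean of all probe sets 1 gene rose. Leaving out each array gave 10 to 18 lower and 0 higher. Over all genes 728 were lower under quantile normalization, 667 under cyclic loess normalization and 1068 with array weights. The counts were 263 lower and 324 higher with the stromal score, 259 and 408 at 0.01, and 319 and 492 at 1.5-fold. Without single arrays they were 359 to 693 lower and 494 to 821 higher. With the stromal score 3 degradation factors and 2 chaperones fell. Role group medians moved by less than the spread between replicates in each alternative. Signs changed for some values that did not pass: with array weights Atf6 (0.09), Ssr2 (0.02), Ssr4 (0.05) and Rpn1 (0.13), with the mean of probe sets Ern1 (-0.02) and Ssr1 (0.15), and with the stromal score Eif2ak3 (-0.06), the marker genes Cd34 (0.02, from -0.84) and Sult1e1 (0.01, from -0.94). Of these, Ssr4 passed in 1 alternative, Cd34 in 2 and Sult1e1 in 4, each time as lower. Hyou1 (-0.40, adjusted p = 0.0837) and Srpr (-0.02, 0.949) missed the threshold without shared probe sets, which kept 36 of the genes. Without single arrays the values ran from -0.11 to 0.09 for Atf6, -0.05 to 0.12 for Ern1, -0.05 to 0.18 for Eif2ak3, -0.24 to 0.07 for Dnajb11, -0.17 to 0.03 for Srp14, -0.17 to 0.02 for Ssr1, -0.15 to 0.08 for Ssr2, -0.09 to 0.08 for Ssr4 and -0.10 to 0.11 for Rpn1. The replicate number as a block gave 15 lower genes. The deviations of same-numbered samples had correlations of both signs (-0.310, 0.235, -0.200 and 0.331). These values show no steady pairing by number, but they cannot exclude a shared batch. The causes of these changes were not tested.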

Other observations

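Chaperones outside the endoplasmic reticulum did not show the falls described above. Of 30 measured cytosolic and mitochondrial chaperones 1 fell, 0 rose and 29 did not pass in limma, with a median of 0.04, and at an unadjusted p under 0.05, 2 were lower and 2 higher. The gene that fell was Hspb1, encoding the small heat shock protein Hsp27, at 11.13, 11.63, 11.46 and 11.12 in wild type and 10.12, 10.02, 10.19 and 9.74 in transgenic samples (difference -1.32 ± 0.14 SE; adjusted p = 0.000137), and its second probe set fell too. The difference between this list and the genes of the endoplasmic reticulum was not tested.

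Outside the 48 genes, 15 measured genes had an ERSE or ERSE-II match in their promoter window, with a median difference of -0.16. Of these 3 fell, Alg12 and Krtcap2 of N-glycosylation and the oxidase gene Ero1b, by 1.34-fold, 1.28-fold and 1.85-fold, and Nucb1, encoding a calcium-binding protein, rose 1.39-fold (limma adjusted p from 0.0129 to 0.0318). These 4 genes were chosen for naming after their values were seen. For 6 of the 15 both group means lay below the median of every array.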
